A study of Nothobranchius furzeri with 16 samples.

Results

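The gene tfeb was followed through adipose tissue of 16 males of Nothobranchius furzeri, the turquoise killifish of seasonal African ponds (strain GRZ-AD, labelled as wild type), as 1 row, ENSNFUG00015019917, of the 18606 fish genes in a table of RNA sequencing values. There were 4 fish in each of 4 groups: old fasted, old refed, young fasted and young refed. Old fish were 18 weeks and young fish 7 weeks of age by the series description. All fish went without food for 72 h, and refed fish were then fed again for 24 h, so no group had been fed throughout and every feeding comparison sets fasting against refeeding. The fish had been housed singly. The comparison addresses whether a dormancy factor of the worm responds to fasting and refeeding in fish adipose tissue, and whether age alters its level.

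TFEB is a transcription factor of the MiT/TFE family, which binds short palindromic sites in front of lysosomal and autophagy genes and raises their transcription. In mammalian cells it is held in the cytoplasm by the nutrient-sensing kinase mTORC1 and moves to the nucleus when nutrients are scarce. In mice, fasting also raises the amount of its transcript, partly because the protein acts on its own gene, and it turns on genes of lipid breakdown. The worm counterpart is HLH-30. The RefSeq annotation of the killifish assembly NfurGRZ-RIMD1 lists 1 gene named tfeb, between mdfi and tmem183a among protein-coding genes, and the relatives tfe3a, tfe3b, tfec, mitfa and mitfb. That table shares no identifiers with the deposited one, so the relatives and the target genes of tfeb were not analysed here, and the adipose label was not checked against marker genes.

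The table gives identifiers and no gene names. The row was matched to tfeb through the z-scores that the study published for the 8 young fish, where it was the closest of all 18606 rows. With 1 scaling factor per fish, taken from smad2, smad3b and smad4, its largest deviation was 6.22e-06, and that of the next best row was 0.296. Values of the young fish served to find the row, and the study had reported tfeb as higher in fasted than in refed young fish. The fasting response of tfeb in young fish is therefore not independent evidence. For older fish, the paper describes part of this set, tfeb and the smad genes, as misregulated, without naming which in its text. The gene and the tests were also chosen with earlier results of these data known. Its age effects are therefore not independent evidence either. Values are normalized units per gene as deposited. The sources used here do not state whether they were divided by gene length. The level of tfeb therefore cannot be compared with that of a gene of another length.

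Every fish had a clear tfeb signal, with a mean of 248 units over the 16 fish. In deposited units this was above the mean of 60.9% of the genes, a rank of unit values and not of transcript amounts. Here and below, abundance and position among genes refer to such values, with gene length not taken into account. In old fasted fish the values were 299, 281, 338 and 355 units (replicates 1 to 4). In old refed fish they were 345, 298, 195 and 310 units. The old groups overlapped, and a single refed fish, replicate 3, lay far below the other 7 old fish.

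In young fasted fish tfeb was at 235, 268, 236 and 176 units. In young refed fish it was at 125, 201, 171 and 138 units. The old fasted fish were the tightest group (coefficient of variation 10.7%, against 22.4% in old refed, 16.9% in young fasted and 21.5% in young refed fish).

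**Figure D1:**
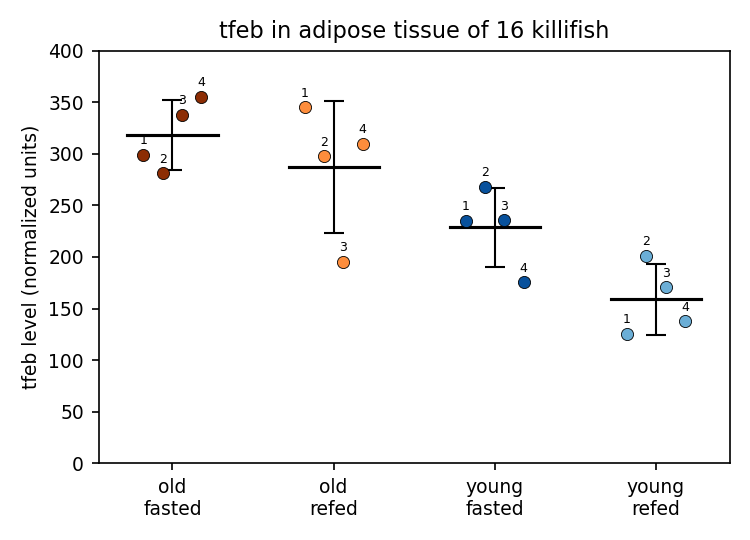
Level of tfeb in normalized units in each of the 16 fish (points, labelled with the replicate number), with the mean (line) and SD (bar) of the 4 fish of each group. The old groups average 318 and 287 units and the young groups 229 and 159 units, and old refed replicate 3 (195 units) is the only old fish below the highest young fish (268 units).

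The group means thus ran from old fasted (318 ± 34.2 units, SD, n = 4) over old refed (287 ± 64.2) and young fasted (229 ± 38.6) to young refed (159 ± 34.1). Only the last step in this order, young fasted over young refed, passed the fit described next. Old fasted and old refed fish did not differ beyond their spread, nor did old refed and young fasted fish.

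All fish genes were fitted together with limma on log2(value + 1), with all 16 fish in one model of 4 groups, and p-values were adjusted over the 18606 genes by the Benjamini-Hochberg method. A gene was called at an adjusted p under 0.05. Effects are differences on this log2 scale with their standard error (SE).

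The first question was how tfeb differed between ages. Averaged over both feeding states, tfeb rose with age, the old fish exceeding the young by 0.66 (SE 0.13, 95% confidence interval 0.39 to 0.94; limma, adjusted p = 0.00172). In linear units the 8 old fish averaged 303 and the 8 young fish 194, a ratio of 1.56. Of the 64 pairs of an old with a young fish, the old fish had the higher value in 60, and 7 of the 8 old fish lay above every young fish. An exact permutation test that exchanged fish of the 2 ages only within a feeding state gave p = 0.000816 (two-sided, 4900 arrangements, 0.00571 after adjustment over the 7 permutation tests run on tfeb, which share fish). The gene was chosen with earlier results of these data known, so these p-values are not independent evidence of a rise. For comparison, 23% of all genes were called in this contrast, and 11.6% were called higher in old fish. In bulk tissue, fewer cells of a type and less RNA per cell cannot be told apart, and this holds for each difference given here.

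In refed fish the age difference was the larger one. The values of 345, 298, 195 and 310 units in old refed fish stood against 125, 201, 171 and 138 units in young refed fish, a ratio of means of 1.81. The effect was 0.84 (SE 0.18, 95% confidence interval 0.46 to 1.23; limma, adjusted p = 0.00319). In this contrast 28.1% of all genes were called, 13% were called higher, and 11.3% had old refed above young refed fish with no overlap. The groups touched at 1 point, where old refed replicate 3 (195 units) was below young refed replicate 2 (201 units), and the exact permutation test gave p = 0.0571 (adjusted 0.08). Without old refed replicate 3 the effect was 1.02 (adjusted p = 0.000604 from limma). The call held whichever fish was left out.

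In fasted fish the same age comparison did not pass. The 4 old fasted fish, at 281 to 355 units, all lay above the 4 young fasted fish, at 176 to 268 units, and the ratio of means was 1.39. The effect of 0.49 (SE 0.18, 95% confidence interval 0.10 to 0.87) had an unadjusted p of 0.0171 and an adjusted p of 0.102 from limma, and the exact permutation test gave p = 0.0286, the smallest that 4 fish against 4 allow (adjusted 0.0724). Old fish above young fish with no overlap was found for 10.7% of all genes in the fasted state, while 9.55% were called and 5.57% were called higher. A fit of the 8 fasted fish alone called tfeb (adjusted p = 0.048 from limma). The fit of all groups, which had not called tfeb, did not call it with any single fish removed from the 16 either (limma, adjusted p = 0.0534 to 0.257). The fit of 8 fish was not repeated with a fish removed, so these values do not bear on its call.

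Whether the age difference depended on feeding was tested directly. Subtracting the age effect in refed fish from the age effect in fasted fish gave -0.36 (SE 0.26, 95% confidence interval -0.90 to 0.19; limma, adjusted p = 0.353), and the same value compares the fasting effects of the 2 ages. The interval spans both no dependence on feeding and a dependence as large as the age effect itself. Across all genes, 14.1% were called in this contrast. Without old refed replicate 3 the difference was -0.53 (unadjusted p = 0.0312, adjusted p = 0.131 from limma).

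The second question was how tfeb responded to feeding. In young fish, fasted values of 235, 268, 236 and 176 units stood against refed values of 125, 201, 171 and 138 units, and 3 of the 4 fasted fish lay above every refed fish. The effect was 0.53 (SE 0.18, 95% confidence interval 0.14 to 0.92; limma, adjusted p = 0.0226), a ratio of means of 1.44, and the exact permutation test gave p = 0.0571 (adjusted 0.08). In this contrast 53.1% of all genes were called and 27.1% were called higher in fasted fish, so that a call was the more common outcome, and 25% had young fasted above young refed fish with no overlap. Removing young fasted replicate 1 (limma, adjusted p = 0.0503) or 2 (0.0708) ended the tfeb call, and so did removing replicate 1 (0.0755) or 4 (0.065) of the young refed fish.

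In old fish, the fasted values of 281 to 355 units lay within and just above the refed values of 195 to 345 units. The effect of 0.17 (SE 0.18, 95% confidence interval -0.21 to 0.56) had an adjusted p of 0.522 from limma, in a contrast in which 26% of all genes were called, 12.1% were called higher in fasted fish, and 12.4% had old fasted above old refed fish with no overlap. The exact permutation test gave p = 0.543. The remaining difference rested on 1 fish, since without old refed replicate 3 the effect was 0.00053 (adjusted p = 0.998 from limma).

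Averaged over both ages, fasted fish were higher by 0.35 (SE 0.13, 95% confidence interval 0.08 to 0.63; limma, adjusted p = 0.0307; exact permutation within ages p = 0.031, adjusted 0.0724). Fasted fish averaged 274 units and refed fish 223 units, and the fasted fish was higher in 44 of 64 pairs. The call was lost in 8 of 16 fits on 15 fish. It was also lost on log2 CPM, where the fish genes of each sample are scaled to a common sum (0.071; limma, adjusted p = 0.657), and with values scaled to spike-in RNAs tfeb passed in the opposite direction, lower in fasted fish (-0.33; limma, adjusted p = 0.0187). Of all genes, 53.3% were called and 26.8% were called higher in fasted fish on the deposited scale. On the spike-in scale, 14483 of the 18606 genes were called lower in fasted fish, and the median gene moved by -0.63. The lower tfeb value there was thus the common direction.

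The point estimate of the age effect (0.66) was larger than that of the feeding effect (0.35). Their difference is, by arithmetic, the contrast of old refed with young fasted fish, the pair in which age and feeding state pull in opposite directions. Old refed fish had 345, 298, 195 and 310 units, against 235, 268, 236 and 176 units in young fasted fish. The difference of 0.31 (SE 0.18, 95% confidence interval -0.08 to 0.70) did not pass (adjusted p = 0.178 from limma; exact permutation p = 0.229), in a contrast in which 44.9% of all genes were called. The old refed fish was higher in 13 of 16 pairs. Without old refed replicate 3 the difference was 0.49 and passed (adjusted p = 0.0259 from limma), so this comparison turned on that fish. On the deposited scale the smaller response to feeding is therefore a matter of the estimates, and the test over all fish does not separate them.

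A partition of the variation of tfeb over the 16 fish, given as a description, put 53.1% of the sum of squares on age, 14.9% on feeding state, 3.82% on their combination and 28.1% on differences between fish of a group. For the 1000 genes nearest to tfeb in mean log2 level (geometric means of 215 to 261 units), the medians of these shares were 7.76%, 34.8%, 7.05% and 32.4%. The share for age was thus higher in tfeb than in 92.8% of these genes, and the share for feeding was higher than in 31.4% of them. The shares of tfeb for age and feeding were 81.1% and 0.357% on log2 CPM, and 73.7% and 8.79% on the spike-in scale.

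The rank of tfeb among the same 1000 genes was unlike for age and for feeding. For the age effect averaged over feeding states, 31 of them had a higher effect than tfeb, and 51 had a larger one in size regardless of sign. The 1000 genes had a median age effect of 0.00 and 5th and 95th percentiles of -0.42 and 0.54, so tfeb at 0.66 lay beyond the upper one. In refed fish 39 of the 1000 had a higher age effect, and in fasted fish 59 did.

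For the feeding effect averaged over ages, 172 of the 1000 genes had a higher effect and 423 a larger one in size. Their median was -0.02, with 5th and 95th percentiles of -0.90 and 0.71, and tfeb at 0.35 lay inside this range. In young fish 162 of the genes had a higher effect than tfeb and 394 a larger one in size. In old fish the numbers were 268 and 606. On the deposited scale most genes of this abundance were the reverse of tfeb in the balance of the effects: the age effect was larger in size than the feeding effect in 304 of the 1000, and limma called 266 of them for age and 616 for feeding. This balance depended on the scale, since the share called for age and for feeding was 26.6% and 61.6% on the deposited scale, 89.1% and 58.3% on log2 CPM, and 63.3% and 90.1% on the scale of the spike-in rows. These ranks are descriptions of these fish and carry no test.

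**Figure D2:**
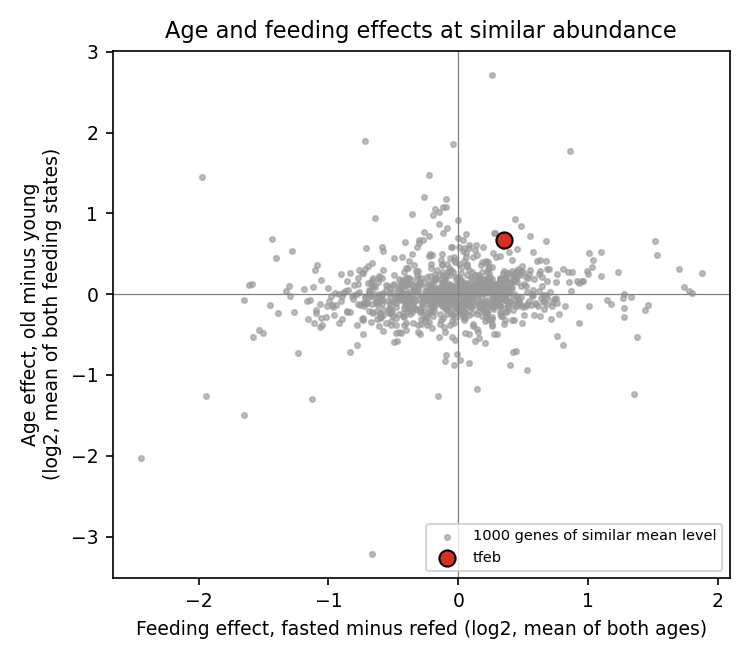
Age effect (vertical axis, old minus young, log2, mean of both feeding states) against feeding effect (horizontal axis, fasted minus refed, log2, mean of both ages) for tfeb (large point) and the 1000 genes nearest to it in mean level (small points). The cloud is wide along the feeding axis and narrow along the age axis, and tfeb at 0.66 and 0.35 stands near its upper edge for age, with 31 genes above it, but well inside it for feeding, with 172 genes to its right.

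Fish of a group differed more in tfeb than in most genes of its abundance. The residual SD of tfeb was 0.28 on the log2 scale, against a median of 0.17 for the 1000 genes, and it was larger than in 83.9% of them. Without old refed replicate 3 it was 0.23, larger than in 77% of the 1000 nearest genes. The share was 79.6% on log2 CPM and 75.3% with values scaled to spike-in RNAs.

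The sums over all fish genes differed between the groups, so the effects were also given on other scales. The sum was 14.3 to 21.3 M units (M, mega) in old fish and 21.0 to 28.3 M in young fish. The 50 most abundant genes held 44.9% to 58.6% of it in old fish and 57.7% to 68.6% in young fish. A rough read depth, taken from the spacing of the lowest values, was 20.3 to 38.1 M reads in old fish and 40.0 to 51.4 M in young fish, so depth and age cannot be told apart. Old refed replicate 3 had the lowest sum and the lowest rough depth, about 278 reads on tfeb where the other 15 fish had 242 to 744, and the part of depth in its low value was not tested. The correlation of log2 tfeb with the log2 sum was -0.44 over the 16 fish and 0.16 after the group means were removed, as a description. With the level of the spike-in RNAs, the correlations were 0.12 and 0.40 in the same order.

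Expressed as CPM, the separation of the ages was complete. Old fish had 14.0, 13.5, 17.8 and 16.9 CPM when fasted and 20.6, 17.5, 13.7 and 19.9 CPM when refed. Young fish had 9.59, 9.57, 8.55 and 6.21 CPM when fasted and 4.71, 7.62, 8.14 and 5.95 CPM when refed. No old fish was below 13.5 CPM and no young fish was above 9.59 CPM. On log2 CPM, 14639 of the 18606 genes were called higher in old fish over both feeding states, so this direction was the common one.

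On log2 CPM the age effect was 0.81 in fasted fish (limma, adjusted p = 0.00178) and 1.32 in refed fish (limma, adjusted p = 1.61e-05). This scale moved the median gene upward in old fish by 0.31 when fasted and by 0.50 when refed, and 98.2% and 97.4% of the genes it called in these contrasts were higher in old fish, against 58.4% and 46.4% on the deposited scale. The feeding effects on log2 CPM were 0.33 in young fish (adjusted p = 0.139 from limma) and -0.18 in old fish (0.378).

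Synthetic ERCC spike-in transcripts fill another 74 rows, of which 42 with a mean of at least 100 units set a level per fish. The killifish methods of the paper do not mention spike-ins, so the amount added to each sample is not known. They give a single mass of total RNA for library preparation. Scaling to these rows assumes equal amounts relative to the sample, which was not tested. Their share of the column total was 4.21% ± 0.281 in old fasted, 3.50% ± 0.254 in old refed, 4.10% ± 0.410 in young fasted and 2.81% ± 0.127 in young refed fish (SD, n = 4 each). Scaled to these rows, tfeb was at 247 to 300 units in old fasted fish, 284 to 446 in old refed fish, 123 to 185 in young fasted fish and 142 to 218 in young refed fish. Every old fish was above every young fish on this scale, and in old fish the order of the feeding states turned round, with 3 of the 4 refed fish above every fasted fish. In young fish the means also turned round, at 161 units in fasted and 183 units in refed fish, and these groups overlapped. Over both feeding states, 9975 of the 18606 genes were called higher in old fish on this scale.

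On the spike-in scale the age effect was 0.81 in fasted fish (limma, adjusted p = 0.00283) and 1.12 in refed fish (0.000245). The feeding effect was -0.18 in young fish (0.372) and -0.49 in old fish (0.0172), so that relative to the spike-in rows tfeb was lower in fasted than in refed old fish. In that contrast 13916 of the 18606 genes were called lower in fasted fish. This scale moved the median gene by -0.60 in young and -0.67 in old fish for feeding, where 4.34% and 1.26% of the called genes were higher in fasted fish, against 51.1% and 46.5% on the deposited scale.

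**Figure D3:**
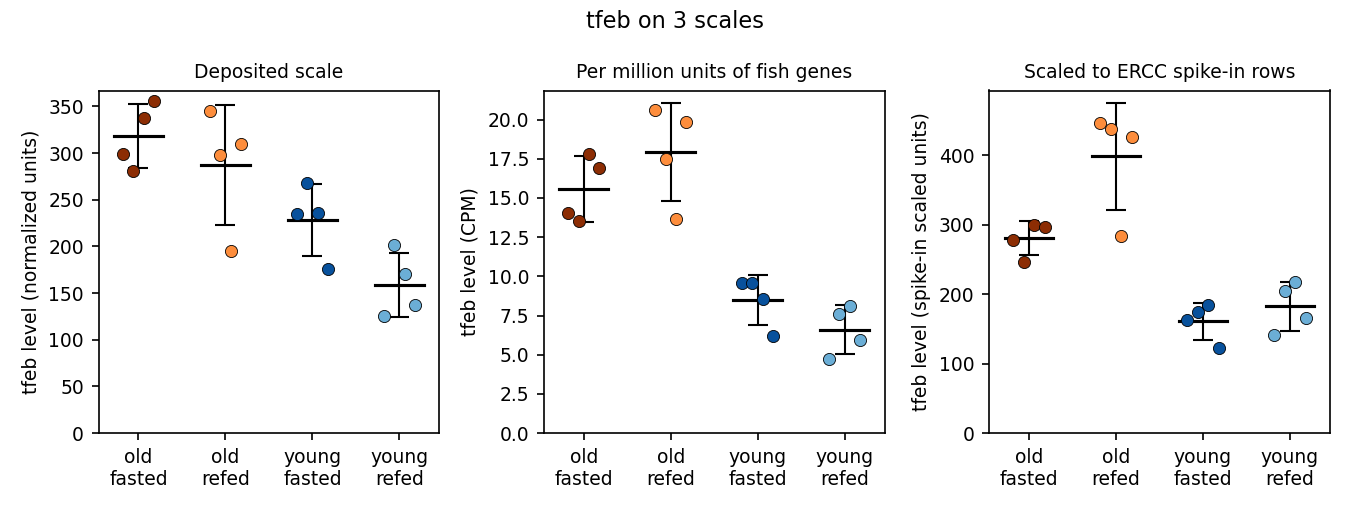
Level of tfeb in each fish (points) with group mean (line) and SD (bar, n = 4) on the deposited scale in normalized units, as CPM of all fish genes, and scaled to the spike-in rows. Old fish lie above young fish on each scale with the exception of old refed replicate 3 on the deposited scale. The order of the fasted and refed means changes between scales in old fish, and on the spike-in scale also in young fish.

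The signed order of tfeb among genes of its abundance changed little with the scale, since a factor per fish moves all genes nearly alike. Measured from the median of the 1000 nearest genes, the mean age effect of tfeb was 0.66 on the deposited scale, 0.60 on log2 CPM and 0.66 on the spike-in scale. The mean feeding effect measured in the same way was 0.37, 0.34 and 0.37. The number of the 1000 genes with a higher age effect was 31, 30 and 31, and with a higher feeding effect 172, 179 and 173. The order by size regardless of sign did change for feeding, where 423, 862 and 850 of the genes had a larger mean effect than tfeb, and in young fish 394, 544 and 891. For age these numbers were 51, 32 and 36. With the genes taken as reference, the age effect in refed fish (0.85, 0.77 and 0.85) was the largest of the 4 single effects of tfeb on each of these scales, and the feeding effect in old fish (0.20, 0.18 and 0.20) the smallest.

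**Figure D4:**
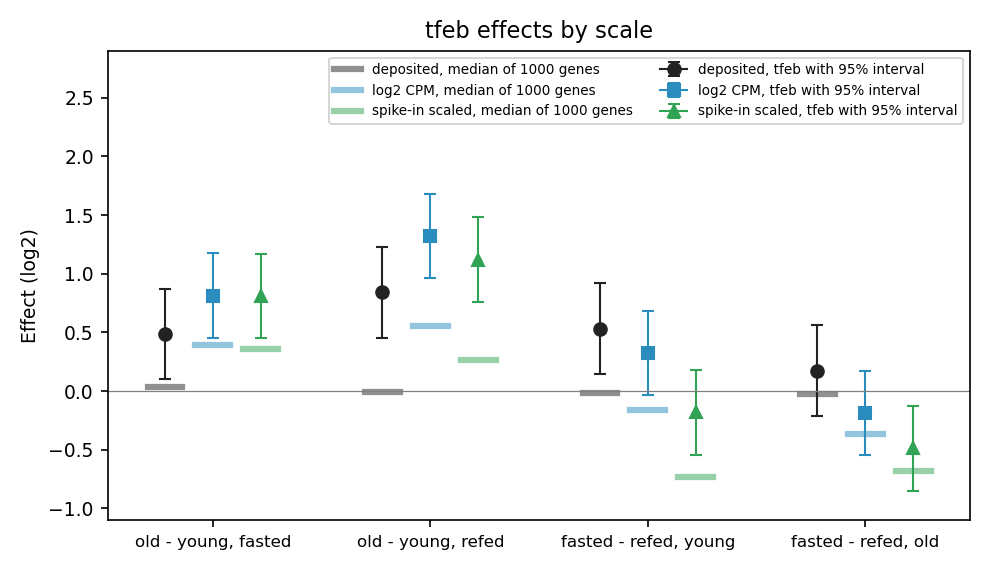
Effects of tfeb (points, log2, bars are 95% confidence intervals from limma) for old minus young in fasted and in refed fish and for fasted minus refed in young and in old fish, on the deposited scale, on log2 CPM and on the spike-in scale. Thick dashes give the median of the 1000 genes of similar abundance on the same scale, which shifts with tfeb, for example from -0.02 to -0.73 for feeding in young fish while tfeb goes from 0.53 to -0.18.

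No factor per fish can change the position of tfeb within a fish. The medians of the deposited values were alike in all fish (155 to 168 units). The position therefore largely follows the deposited level and is not a separate result. The share of fish genes with a lower value than tfeb was 66.4%, 65.9%, 70.6% and 71.3% in old fasted fish and 70.3%, 66.1%, 54.2% and 67.1% in old refed fish. It was 61.4%, 64.3%, 61.2% and 52.5% in young fasted fish and 44.0%, 55.8%, 51.7% and 45.5% in young refed fish. Every old fasted fish was above every young fasted fish, and 3 of the 4 old refed fish were above every young refed fish, as for the deposited values.

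The other genes that the study named in these fish, the TGFβ signal transducers smad2, smad3b and smad4, had the opposite balance on the deposited scale. Their mean feeding effects were 0.38, 1.03 and 0.70 (adjusted p = 4.98e-05, 3.22e-06 and 2.38e-05 from limma), where that of tfeb was 0.35. Their mean age effects were -0.09, 0.05 and -0.19, and none of these passed (adjusted p = 0.305, 0.815 and 0.182 from limma). The smad rows were matched in the way described for tfeb, but without a scaling factor per fish. The largest deviations were 0.106 (smad2), 0.059 (smad3b) and 0.138 (smad4), against 0.149, 0.108 and 0.185 for the next best rows. The study had also reported these genes as higher in fasted than in refed young fish. The feeding p-values of the smad genes, and their balance of effects, are therefore not independent evidence. Of all genes, 53.3% were called for the mean feeding effect and 23% for the mean age effect. The smad effects on the other scales are not given here. There the median gene moved by -0.17 (log2 CPM) and -0.63 (spike-in scale) for feeding, and by 0.41 and 0.31 for age. Over the 16 fish the correlation of log2 levels with tfeb was 0.26 for smad2, 0.50 for smad3b and 0.24 for smad4, as a description over fish that share their groups. On log2 CPM these correlations were 0.81, 0.62 and 0.57, and on the spike-in scale 0.65, 0.40 and 0.32. Among genes with a mean of at least 20 units, the median correlation with tfeb was 0.03 on the deposited scale. It was 0.60 on log2 CPM and 0.50 on the spike-in scale, so smad3b and smad4 were near or below the typical gene on those scales.

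The genes most like tfeb were taken as those with the highest correlation of log2(value + 1) over the 16 fish among 16881 genes with a mean of at least 20 units. The highest was ENSNFUG00015004216 (r = 0.97), at 509 ± 19.7 units in old fasted, 456 ± 43.2 in old refed, 414 ± 36.6 in young fasted and 329 ± 43.5 in young refed fish (SD, n = 4 each). The next was ENSNFUG00015025046 (r = 0.96), at 799 ± 57.8, 692 ± 97.9, 600 ± 81.0 and 493 ± 51.1 units in the same order of groups. Both had the group order of tfeb. After the group means were removed r was 0.90 for each, and in both old refed replicate 3 was the lowest old fish, which describes the fish on which the genes were chosen and adds no separate result.

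The lowest correlations were those of ENSNFUG00015016649 (r = -0.94) and ENSNFUG00015005714 (r = -0.91). The first had 147 ± 22.5 units in old fasted, 161 ± 48.7 in old refed, 201 ± 36.7 in young fasted and 247 ± 22.8 in young refed fish (SD, n = 4 each), the group order of tfeb turned round. The second had 263 ± 94.5, 281 ± 86.8, 397 ± 127 and 758 ± 111 units in the same order of groups, with its highest values in young refed fish. On the scale of the spike-in rows these negative correlations shrank to -0.11 and -0.32, whereas those of the 2 most similar genes were 0.94 and 0.95. In all, 40 of the 16881 genes had a correlation of at least 0.9 with tfeb on the deposited scale, and 790 had one on log2 CPM. The median correlation of these genes with tfeb was 0.03 on the deposited scale and 0.60 on log2 CPM. The identifiers carry no names here, and a correlation over fish of 4 groups does not speak of shared function or control.

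**Figure D5:**
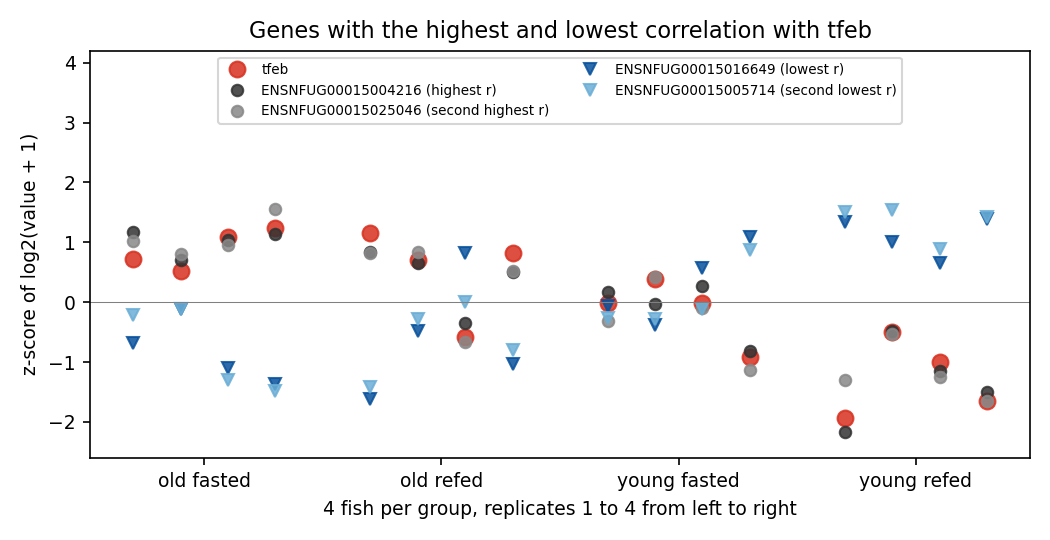
z-scores of log2(value + 1) in each of the 16 fish for tfeb (large circles), the 2 genes with the highest correlation with it (small circles) and the 2 with the lowest (triangles), with replicates 1 to 4 of each group from left to right. The circles share the low value of old refed replicate 3, and the triangles run against the circles across the groups.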

How the data were processed

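Per the paper, the authors removed ribosomal and transfer RNA reads, pseudo-aligned the rest to Nfu_20140520 with kallisto 0.45.0 and compared groups with DESeq2 1.24.0. What was deposited is a signal, 1 normalized value for each gene and fish, and the sources used here do not give its scaling. They are not whole, their medians were 155 to 168 units per fish, and 66.8% to 86.3% of the lowest values lay within 0.1 of a whole multiple of a step, so whole reads were not recovered and no counting interval is given. The columns of all 16 fish were matched to the samples by name, and 0 other value columns were found.

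The fit of log2(value + 1) used R 4.3.3 and limma 3.58.1, with a trend in eBayes. Exact permutation tests were two-sided (Python 3.11.15, numpy 2.4.6, pandas 2.3.3, scipy 1.17.1), and plots used matplotlib 3.10.9. Spike-in rows were kept out of tests and sums. The fit was tested on simulated data.

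The gene, the lists and the tests were chosen with earlier results of these data known. Named genes were tfeb, the 3 smad genes of the study, and by rule the 2 genes with the highest and the 2 with the lowest correlation with tfeb. Lists of lysosomal, autophagy and cell type marker genes need symbols, and since 0 of the identifiers are among 38438 RefSeq genes, they were not used. Alternatives were other pseudocounts, a filter of at least 10 units in at least 4 fish, other scalings (log2 CPM, with and without the 50 most abundant genes, median of ratios, spike-in rows), fits of 8 fish, eBayes without trend, the replicate number as a block, and each fish left out.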

Additional observations from a re-analysis of the deposited data

Results flagged for a closer look

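On the scale of the spike-in rows, old refed replicate 3 had 284 units of tfeb, and the other 3 old refed fish had 426 to 446 units. The gap was 87.7% of the range of the group, above the limit of Dixon's test for 4 fish. The test was run on 7 measures in 4 groups and flags about 1 in 20 groups by chance. On the deposited scale (195 units, against 298 to 345 units in the other 3 fish) and on CPM the same fish was lowest but did not pass the limit.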

How the results depend on the processing

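Pseudocounts of 0.1 and 5, the filter on low values, eBayes without trend, scaling by the median of ratios and CPM without the 50 most abundant genes changed no call of the 8 tests of tfeb. On log2 CPM and on the spike-in scale, the age effect in fasted fish passed (0.81 on each scale, limma, adjusted p = 0.00178 and 0.00283), as it did in the fit of 8 fish (0.49, 0.048), and so did old refed minus young fasted fish (1.00 and 1.30). On log2 CPM the feeding calls were lost in young fish (0.33; limma, adjusted p = 0.139) and over both ages (0.071, 0.657). On the spike-in scale the feeding effect had the opposite sign, without passing in young fish (-0.18, 0.372) and passing in old fish (-0.49, 0.0172) and over both ages (-0.33, 0.0187). Of all genes called on that scale, only 1.26% in old fish and 2.75% over both ages were higher in fasted fish. In old fish the feeding effect of tfeb was -0.18 on log2 CPM (0.378). With each fish left out in turn, effects ranged from 0.37 to 0.57 for age in fasted and 0.74 to 1.02 in refed fish, from 0.60 to 0.75 for age over both feeding states, from 0.43 to 0.65 for feeding in young and 0.00053 to 0.27 in old fish, from 0.27 to 0.41 for feeding over both ages, from -0.53 to -0.25 for the difference of the effects, and from 0.19 to 0.49 for old refed minus young fasted fish. Among the 1000 genes of similar abundance, the share with a lower effect than tfeb ranged from 96.0% to 98.4% for age and from 74.8% to 85.2% for feeding. With 500 or 2000 genes it was 97.4% and 96.7% for age and 83.8% and 82.4% for feeding.

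With the replicate number as a block, no call of tfeb changed (age in refed fish 0.84, limma, adjusted p = 0.00767; feeding in young fish 0.53, 0.0359), and the genes called for age in fasted fish numbered 1162, against 1777 without it. The numbers are not a stated pairing, and 3 of 24 same-numbered pairs of fish had deviations correlated above 0.1.

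Counts of called genes on the deposited scale, on log2 CPM and on the spike-in scale were 1777, 8503 and 6938 for age in fasted fish, 5229, 13629 and 7412 for age in refed fish, 9881, 7700 and 12103 for feeding in young fish, 4842, 8783 and 14094 for feeding in old fish, 4275, 14934 and 10474 for age and 9916, 9213 and 14893 for feeding over both states, 2632, 1188 and 1435 for the difference of the effects, and 8359, 14363 and 15921 for old refed minus young fasted fish. Without old fasted replicate 3, 740 genes were called for age in fasted fish, and without old fasted replicate 1, 1683 for the difference of the effects.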
